A study of Mus musculus with 20 samples.

Results

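The clustered protocadherins are 58 genes of the deposited count table, picked out by their symbols from its 34291 rows. They comprise 14 alpha members, 22 beta members and 22 gamma members. The libraries hold polyadenylated RNA of the entire heart of C57BL/6 mice at 27 months of age. From 24 months the mice had eaten for 3 months either food with 14 ppm rapamycin, which inhibits the kinase mTOR, a regulator of cell growth, or a control diet, and each diet has 10 libraries. The comparison asks how late-life feeding with rapamycin alters RNA levels in the old heart. Libraries are called control or rapamycin followed by their labelled number.

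Clustered protocadherins are cell-surface adhesion molecules of the cadherin superfamily, best known from neurons, where each cell uses its own combination of them and like combinations recognise each other. The genes stand in tandem arrays. In the alpha and gamma arrays each variable exon has its own promoter and is spliced to constant exons shared by the whole array, which encode a common cytoplasmic end, whereas each beta gene is its own exon and lacks such a shared part. Promoter choice is known to depend on the insulator protein CTCF and on cohesin, and unused promoters are kept silent by DNA methylation and the chromatin protein SMCHD1.

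The arrays differed widely in how many reads they held. The 22 beta members held 10297 reads over the 20 libraries, the gamma members 1715 and the alpha members 21. A gene entered the test if it passed edgeR's default filter on low counts, as 13940 genes of the table did. Of the members 14 beta and 2 gamma genes passed, and they held 93.5% of the beta reads and 73.4% of the gamma reads. None of the alpha members passed. Total counts were 7039514 to 12458309 per library and levels are given as CPM (counts scaled to a common library size, with TMM-scaled totals). At this depth counting error is large for most members. The labels number the libraries and give no animal identifier, so p-values measure the spread between these libraries.

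In the hearts of rapamycin-fed mice 1 beta member, Pcdhb12, and 1 gamma member, Pcdhga1, rose, and none of the 16 tested members fell (edgeR quasi-likelihood test, Benjamini-Hochberg adjusted p under 0.05 over all genes tested). Pcdhb12 rose by 0.69 ± 0.13 on the log2 scale (SE) and Pcdhga1 by 0.42 ± 0.11. Among all genes tested 3.36% were called, of which 0.689% of genes tested rose and 2.68% fell. Without control 19 both genes kept their call (adjusted p = 0.0102 and 0.0350 by edgeR), where 1.05% of genes tested rose. Control 19 was a library in which 5 lung markers summed to 23990 CPM, against a control median of 1.76. Among rapamycin libraries, 4 liver markers summed to 310 CPM in rapamycin 9 (group median 1.75) and 4 thymus markers to 32.6 in rapamycin 8 (2.09), the library with the highest Pcdhb12. In whole-heart RNA, a change in the number of cells that express a gene and a change of RNA per cell cannot be told apart.

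Pcdhb12 encodes a beta protocadherin, an adhesion molecule without the shared cytoplasmic part. In the control libraries its normalised level was lowest at 1.09 CPM in control 19, had a median of 1.38 and reached 1.84 in control 10. With rapamycin it ran from 1.83 in rapamycin 12 over a median of 2.35 to 3.12 in rapamycin 8. The groups thus overlapped at a single pair of libraries: 9 of 10 rapamycin libraries lay above every control, and 9 of 10 controls lay below every rapamycin library. Complete separation was seen for 0.0717% of genes tested, and for none of the 16 tested members. The mean was 1.43 ± 0.237 CPM (SD, n = 10) without rapamycin and 2.31 ± 0.393 (n = 10) with it, a ratio of 1.61 (edgeR adjusted p = 0.0111).

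These levels of Pcdhb12 rest on few reads, 9 to 17 in each control library and 17 to 28 in each rapamycin library, or 139 and 223 reads in all. The spread between libraries was smaller than counting alone gives, with a variance 0.49 times that of counting error. Counting error alone would give its log2 fold change an SE of 0.16, above the 0.13 of the fit. The exact test of edgeR, whose dispersion cannot fall below counting error, was added for this reason after the values were seen and also called it (adjusted p = 0.00553), as did DESeq2 (SE 0.18, adjusted p = 0.00663). The call held in 20 of 20 fits that each left out 1 library (adjusted p = 0.00774 to 0.0273 by edgeR). In a current gene annotation, 62.9% of the 50-base windows of the Pcdhb12 transcript also lie in Gm37446, a gene on the opposite strand. The counting is not stated to use strand, so reads of that pair cannot be told apart.

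**Figure D1:**
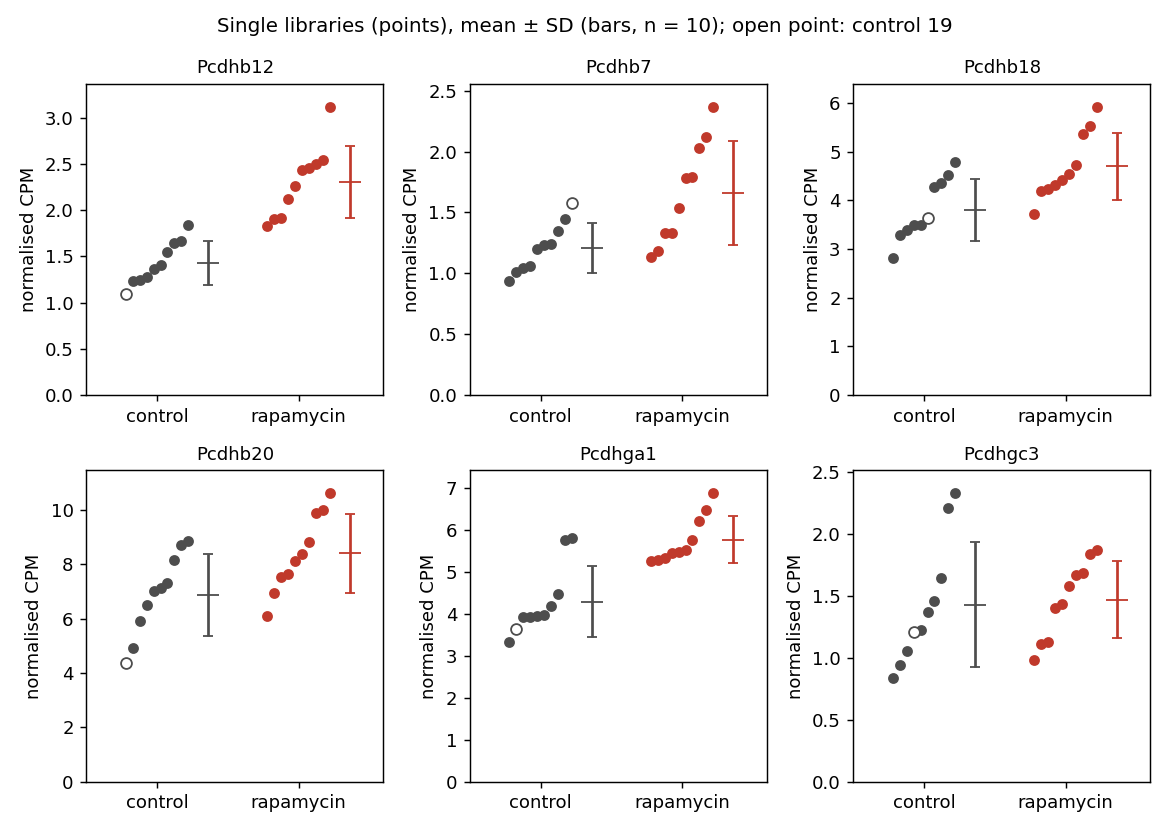
Normalised level in CPM (vertical axes, each from 0) of 6 members in every library, controls in grey and rapamycin in red, sorted within each group, with the mean and SD (n = 10 per group) beside the points. Pcdhb12 overlaps at 1 pair of libraries and Pcdhga1 at 2 high controls, whereas the other panels overlap broadly.

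Pcdhga1 is the first variable gene of the gamma array. Its level in controls ran from 3.33 CPM over a median of 3.96 to 5.80, and with rapamycin from 5.25 over a median of 5.49 to 6.86. The rapamycin libraries all lay above 8 of the 10 controls, and controls 7 (5.80) and 16 (5.74) lay among them. The means were 4.29 ± 0.834 and 5.75 ± 0.561 CPM (SD, n = 10 per group), a ratio of 1.34 (edgeR adjusted p = 0.0321, 419 and 559 reads). The call was lost in 8 of the 20 fits without 1 library (adjusted p up to 0.0698 by edgeR), namely those without rapamycin 4, 6, 9, 12, 15 or 18 or without control 2 or 11. Its log2 fold change stayed between 0.39 and 0.48 in the 20 fits. It was also lost without the 4 libraries that held lung transcripts (0.40, adjusted p = 0.0961 by edgeR) and with library totals in place of TMM scaling (0.30, adjusted p = 0.0913), a setting that shifted the median of all genes from -0.01 to -0.13. The 4 libraries with lung transcripts were control 1, control 19, control 20 and rapamycin 15.

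The rest of the gamma array held similar numbers of reads in both groups. The 21 other gamma members together held 366 reads in controls and 371 with rapamycin, or a summed normalised level of 3.75 ± 0.985 CPM (SD) against 3.87 ± 0.595. Their libraries ran from 2.50 to 5.22 in controls and from 2.98 to 4.75 with rapamycin, so the groups overlapped over most of their range. Summed over all 22 gamma members, the level was 8.04 ± 1.01 CPM in controls and 9.62 ± 0.829 with rapamycin, a ratio of 1.2, and 1.17 without control 19. Pcdhga1 made up 57% of all gamma reads, and between 40.0% and 69.6% in single libraries.

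The row of Pcdhga1 may not stand for that isoform alone. In the current annotation 3 exons are shared by the gamma genes, and 39.5% of the exonic bases of Pcdhga1 also belong to other members. How the authors' counter assigned reads of these shared exons is not given in the sources used here. Pcdhga1 held 978 reads, the next gamma member, Pcdhgc3, held 280, and each of the 20 others held 2 to 61. Whether reads of the shared exons were assigned to the first gene of the array was not tested, so the rise is that of the row named Pcdhga1. The authors' deposited table of 700 genes lists 1 member, Pcdhga1. The mean level of Pcdhb12 (1.84 CPM without scaling factors) lay under the lowest mean of any gene in that table, 2.97 CPM, and 8 members reached that mean.

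**Figure D2:**
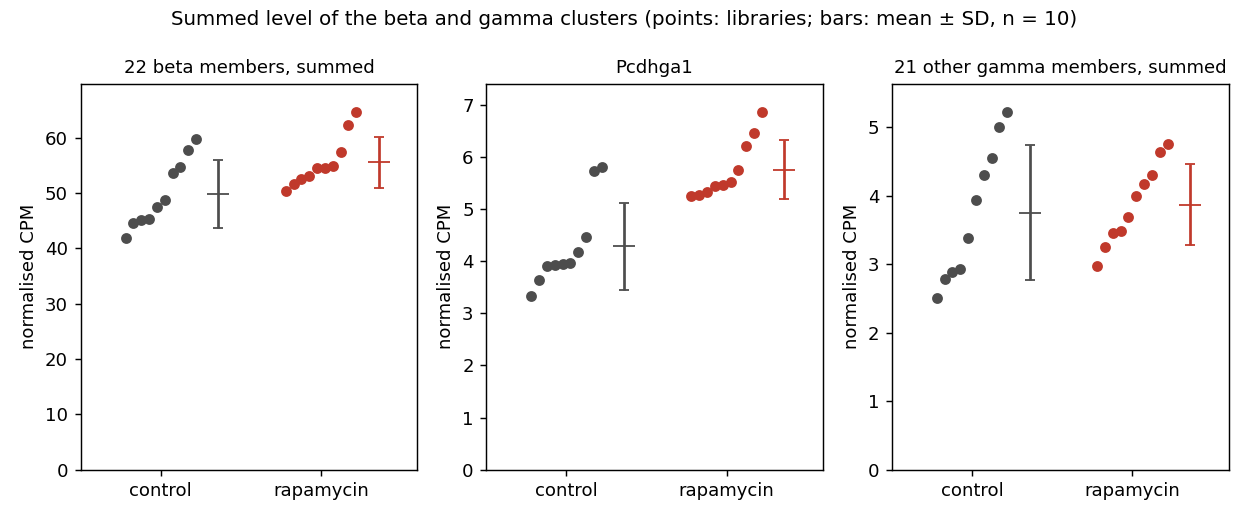
Normalised CPM per library (vertical axes, each from 0) of the 22 beta members summed, of Pcdhga1 and of the 21 other gamma members summed, controls in grey and rapamycin in red, with mean and SD (n = 10 per group). All rapamycin libraries of Pcdhga1 are at 5.25 or above, while the other gamma members cover much the same range in both groups.

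C-type genes lie at the ends of the alpha and gamma arrays and are known as isoforms that are not chosen at random. Pcdhgc3 was the C-type gene with the most reads. Its control libraries ran from 0.834 CPM over a median of 1.30 to 2.33 and its rapamycin libraries from 0.983 over 1.51 to 1.87, with 140 reads in each group. The groups overlapped throughout, and the log2 fold change was 0.03 ± 0.19 (adjusted p = 0.952 by edgeR). Of its 50-base windows 31.6% lie in the antisense gene BC037039. Pcdhgc4 held 2 reads, both with rapamycin, and Pcdhgc5 held 3. Pcdhac1 held none, and Pcdhac2 held 7, all of them in 6 control libraries.

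Of the remaining 18 gamma genes, Pcdhgb2 led with 28 reads in controls and 33 with rapamycin, followed by Pcdhgb6 with 26 and 25. Pcdhga9 held 0 reads in controls and 6 with rapamycin, in 5 libraries. With every gene that had a read admitted to the test, none of the 31 members that failed the filter was called by edgeR. In that fit 335 of all 23781 genes were called, and 4479 had an unadjusted p under 0.05. Pcdhac2 (p = 0.00284, adjusted p = 0.0857) and Pcdhga9 (adjusted p = 0.113) were the 2 with an unadjusted p under 0.05. DESeq2 gave them unadjusted p-values of 0.178 and 0.307.

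In the alpha array 11 of 14 genes were listed at 0 in every library. No read among 195230659 allows a level of up to 0.0154 CPM per gene, for counting error only. Pcdha1 held 8 reads in controls and 4 with rapamycin, and Pcdha8 held 2, both in controls. The highest count of an alpha member in any library was 2. As in the gamma array 3 exons are shared, and how their reads were counted is not given in the sources used here. Together the alpha members held 17 reads in controls, 1 to 4 in each of the 10 libraries, and 4 reads with rapamycin, 1 in each of 4 libraries and none in the other 6. Their summed level was 0.171 ± 0.0971 CPM in controls (0.0946 to 0.387) and 0.0419 ± 0.0543 with rapamycin (0 to 0.112), so the groups overlapped among libraries with 1 read. Without control 19 the control level was 0.177 ± 0.101 CPM. The sum was not tested.

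**Figure D3:**
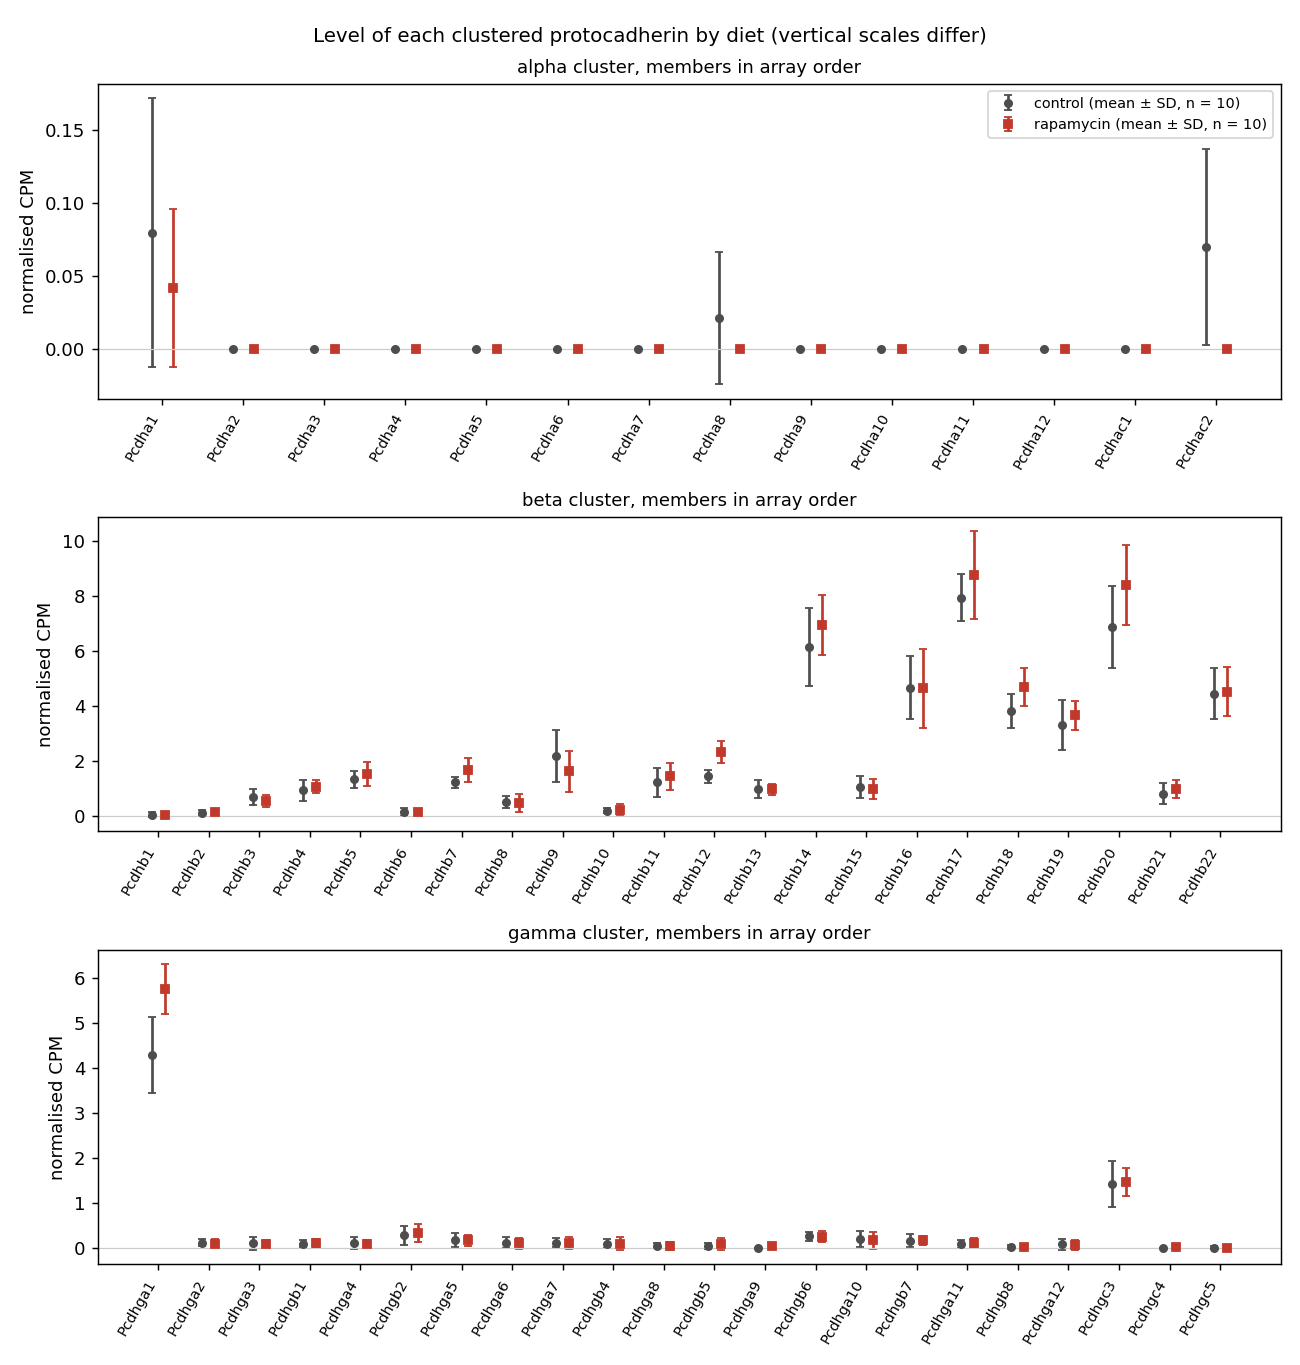
Mean normalised CPM with SD (n = 10 per group) of each of the 58 members, in array order from left to right (Pcdha10, which has no entry of that name in the annotation, is placed by its number). The alpha panel stays near 0, the highest beta levels are those of Pcdhb17, Pcdhb20 and Pcdhb14, and in the gamma panel Pcdhga1 and Pcdhgc3 stand above the others.

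The beta genes can be compared with one another per length, since they are nearly all free of shared exons. Per kilobase of annotated exon, Pcdhb20 was highest with 2.15 CPM, followed by Pcdhb17 with 1.79, Pcdhb16 with 0.890, Pcdhb18 with 0.844 and Pcdhb14 with 0.753 (means over 20 libraries). Pcdhb12 stood at 0.616 and Pcdhb9 at 0.619. The lowest were Pcdhb1 at 0.0100, Pcdhb6 at 0.0331 and Pcdhb2 at 0.0456. The levels differed by position in the array. The 9 genes from Pcdhb14 to Pcdhb22 held 78.3% of beta reads at 0.853 CPM per kilobase, against 0.259 for the 13 genes before them, a split chosen after the values were seen. Single genes overlapped between these stretches, at 0.188 to 2.15 in the later and 0.0100 to 0.619 in the earlier one, and Pcdhb21 (0.188), Pcdhb15 (0.360) and Pcdhb19 (0.488) lay below Pcdhb9 and Pcdhb12. Exon lengths come from a later annotation than the authors used, and unique mapping removes some reads, since 0% to 12% of the 50-base windows of a beta transcript recur in a gene elsewhere, the largest share being that of Pcdhb12.

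Of 14 tested beta members 4, Pcdhb12 among them, had an unadjusted p under 0.05 by edgeR with a higher level in rapamycin. For all genes tested the share was 8.21%. None of the 14 had such a p with a lower level, against 13.5% of all genes. The 3 besides Pcdhb12 did not pass over all genes. Pcdhb7 was at 1.21 ± 0.206 CPM in controls (0.939 to 1.58) and 1.66 ± 0.425 with rapamycin (1.13 to 2.37), with 5 rapamycin libraries above every control (log2 fold change 0.46 ± 0.15, adjusted p = 0.0947 by edgeR). Pcdhb18 was at 3.81 ± 0.635 CPM (2.82 to 4.80) and 4.70 ± 0.695 (3.72 to 5.93), and all 10 rapamycin libraries lay above the control median (0.30 ± 0.11, adjusted p = 0.125). Pcdhb20 was at 6.88 ± 1.5 CPM (4.37 to 8.84) and 8.40 ± 1.45 (6.08 to 10.6), with its lowest value in control 19 (0.29 ± 0.13, adjusted p = 0.196, and 0.24 without that library).

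The member with the highest level not scaled to length, Pcdhb17, was at 7.94 ± 0.864 CPM in controls and 8.76 ± 1.61 with rapamycin (log2 fold change 0.14 ± 0.10, adjusted p = 0.435 by edgeR). It drew on 772 and 855 reads, so its counting error was an SE of 0.07. Pcdhb14 was at 6.14 ± 1.43 and 6.95 ± 1.09 CPM (0.18 ± 0.13, 0.447). For Pcdhb17 5 rapamycin libraries lay above every control, whose highest was 9.18 CPM, and for Pcdhb14 2 did, while the other libraries of both groups overlapped. Pcdhb9 and Pcdhb15 had the tested values below 0, at -0.40 ± 0.26 (adjusted p = 0.377) and -0.10 ± 0.24 (0.846). The value of Pcdhb9 was -0.24 without control 19, its highest library at 4.25 CPM. It was -0.08 without the 4 libraries that held lung transcripts and -0.60 without rapamycin 5. Pcdhb16 (0.00 ± 0.17) and Pcdhb22 (0.02 ± 0.14) were within 1 SE of 0, and Pcdhb22 was at -0.02 without control 19. The other tested beta genes were Pcdhb4 (0.19 ± 0.21), Pcdhb5 (0.19 ± 0.18), Pcdhb11 (0.25 ± 0.24) and Pcdhb19 (0.14 ± 0.14). Pcdhb4, Pcdhb15 and Pcdhb19 were also within 1 SE of 0.

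**Figure D4:**
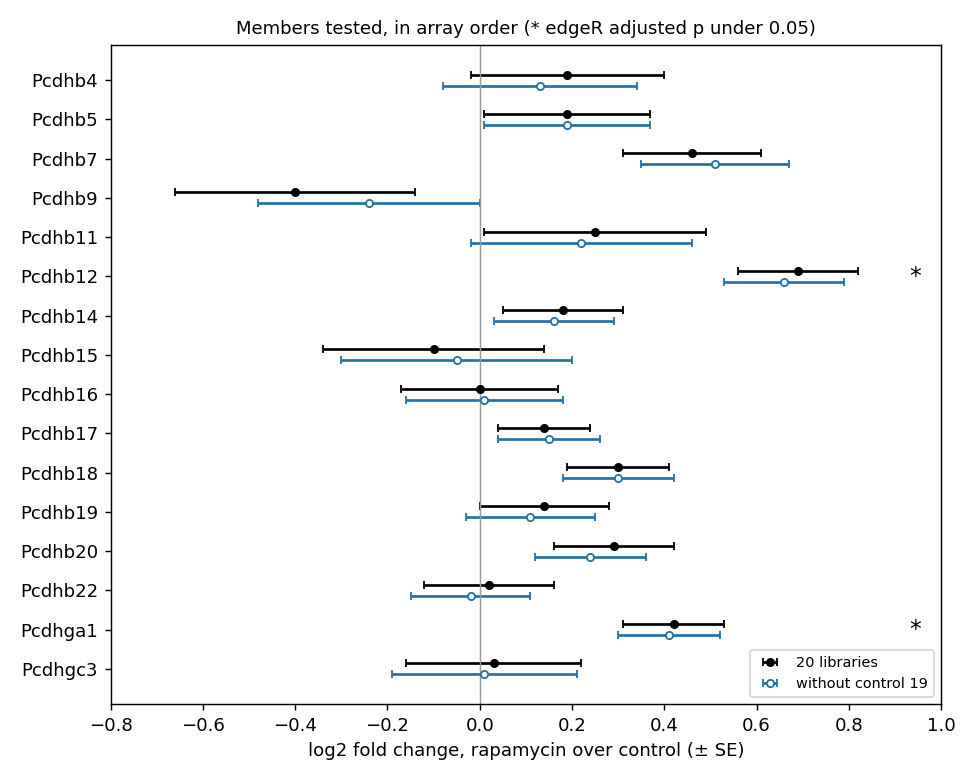
Log2 fold change of rapamycin over control with SE (horizontal axis) for the 16 tested members in array order, with 20 libraries (filled) and without control 19 (open). Stars mark Pcdhb12 and Pcdhga1, and values without control 19 stay near the others, with the widest shift in Pcdhb9 from -0.40 to -0.24.

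Over the 14 tested beta members 12 had values above 0 and the median was 0.18, where 47.5% of all genes tested lay above 0 and their median was -0.01. Without control 19 these were 11 of 14 and a median of 0.15, against 0.00 for all genes. With library totals in place of TMM scaling they were 10 of 14 and 0.06, or 0.20 above the median of all genes in that setting. The members share an array and a library and were measured with SEs of 0.10 to 0.26, so the count is a description. The summed beta level was 49.9 ± 6.16 CPM in controls (41.9 to 59.8) and 55.6 ± 4.61 with rapamycin (50.4 to 64.6), a ratio of 1.11. The 8 beta members that failed the filter held 333 and 336 reads, and their summed level was 3.40 ± 0.753 CPM in controls and 3.42 ± 0.873 with rapamycin.

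Among those 8, Pcdhb13 held 96 reads in controls and 94 with rapamycin, Pcdhb21 held 78 and 96, Pcdhb3 67 and 53, and Pcdhb8 48 and 44. Pcdhb10, Pcdhb2 and Pcdhb6 held 10 to 22 reads per group, and Pcdhb1 held 4 and 1. Pcdhb21 shares 9.67% of its exonic bases with its neighbour Pcdhb22, so their reads can be mixed. Outside the family, Taf7, a subunit of the general transcription factor TFIID that lies between the beta and gamma arrays, was at 10.2 ± 1.62 CPM in controls and 11.1 ± 2.18 with rapamycin (log2 fold change 0.13 ± 0.11, adjusted p = 0.525 by edgeR). Of the other neighbours, Diap1 was at 38.8 ± 10.6 and 34.4 ± 3.88 CPM (-0.17 ± 0.12, adjusted p = 0.404), and Slc25a2, which failed the filter, at 0.274 ± 0.175 and 0.129 ± 0.0706 CPM. These 3 were chosen after the files were seen.

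Genes that control promoter choice and silencing in the arrays were all tested, and edgeR called none of 11 architectural genes, with 1 at an unadjusted p under 0.05, and none of 16 silencing genes, with 2, where 21.7% of all genes tested had such a p. Their medians were 0.00 and 0.01. Ctcf, the insulator protein that binds the active promoters, stood at 0.12 ± 0.05 (adjusted p = 0.146 by edgeR), and Rad21, a cohesin subunit, at -0.03 ± 0.05 (0.753). Smchd1 stood at -0.06 ± 0.07 (0.653), and Dnmt3b, the methyltransferase that sets promoter methylation in the arrays, at 0.31 ± 0.13 (3.38 ± 0.695 and 4.20 ± 0.658 CPM, adjusted p = 0.163). The smallest p on the lower side were those of Tet3 (-0.08 ± 0.07) and Dnmt1 (-0.06 ± 0.06), a demethylating enzyme and the maintenance methyltransferase.

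Of 17 tested signalling partners, Ptk2b fell and none rose, where 3.36% of all genes tested were called and 2.68% fell. An unadjusted p under 0.05 was seen for 3 of the 17, against 21.7% of all genes. Ptk2b encodes PYK2, a kinase that binds the shared cytoplasmic part of alpha and gamma protocadherins. It went from 23.7 ± 8.72 to 13.7 ± 2.65 CPM (log2 fold change -0.79 ± 0.17, adjusted p = 0.0190 by edgeR), and its adjusted p was 0.0735 without the 4 libraries that held lung transcripts. The related kinase FAK, encoded by Ptk2, stood at 0.10 ± 0.07 (0.436), and Cyfip2, a subunit of the actin-regulating WAVE complex, at 0.24 ± 0.14 (0.322), the smallest p on the higher side. Macrophages also express Ptk2b, and all 5 macrophage markers of the list fell, with Cd68 at -0.96 ± 0.16 and a summed level of 157 to 386 CPM in controls and 117 to 211 with rapamycin. Their part in the fall of Ptk2b was not tested.

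Of the 13 unclustered protocadherins, which are single genes outside the arrays, 12 were matched by symbol, 9 were tested and none was called, with 2 at an unadjusted p under 0.05, a share near the 21.7% of all genes tested. Their median was 0.01. Pcdh7 had the highest level at 137 ± 25.4 CPM in controls and 162 ± 10.4 with rapamycin (log2 fold change 0.24 ± 0.10, adjusted p = 0.15 by edgeR, and 0.0704 without control 19). Pcdh19 (20.8 ± 3.51 and 24.7 ± 3.27 CPM, 0.25 ± 0.10, adjusted p = 0.152) and Pcdh12 (17.9 ± 6.10 and 21.5 ± 3.50 CPM, 0.27 ± 0.16, adjusted p = 0.349) followed in mean level over all libraries. Pcdh1, with a like level, was at 19.3 ± 6.86 and 19.2 ± 3.65 CPM (0.00 ± 0.15, and 0.16 without control 19). Pcdh9 was at -0.14 ± 0.09 (0.382). DESeq2 called none of the 9.

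The libraries carried the markers of heart tissue, with Myh6, the adult myosin heavy chain, at a mean of 15479 CPM in controls. EdgeR called none of 5 cardiomyocyte, 5 fibroblast and 5 endothelial markers, with 3, 0 and 0 at an unadjusted p under 0.05. Of all genes tested 3.36% were called and 21.7% had such a p. All 5 cardiomyocyte markers lay above 0, as did 2 of the fibroblast and 3 of the endothelial markers (median log2 fold changes 0.31, -0.02 and 0.04). Of 5 mural cell markers 4 lay above 0 and none was called, with 1 at an unadjusted p under 0.05, Kcnj8 (40.0 ± 8.14 and 49.7 ± 2.91 CPM, 0.31 ± 0.10, adjusted p = 0.0864 by edgeR). Kcnj8 was called without control 19 (0.24, adjusted p = 0.0277) and by DESeq2 (adjusted p = 0.0466). The summed cardiomyocyte level was 10624 to 39206 CPM in controls, lowest in control 19, and 30459 to 42337 with rapamycin. For nerve cells, the best known source of these genes, 3 of 8 neuron markers were tested and none was called. The summed level of the 8 was 18 to 35.1 CPM in controls and 16.1 to 31.2 with rapamycin. Of 4 tested Schwann cell markers Cnp fell (-0.66 ± 0.15) and Sox10 stood at 0.52 ± 0.23. All 5 mesothelial markers lay below 0 (median -0.80), and 4 had an unadjusted p under 0.05 by edgeR. Of these only Msln was called (-0.91 ± 0.24, adjusted p = 0.0405 by edgeR, and 0.0548 without control 19). The part of these cell types in the levels of Pcdhb12 and Pcdhga1 was not tested.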

How the data were processed

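Whole-heart poly(A) RNA of rapamycin-fed and control-fed mice, with 10 libraries per diet, was sequenced as 50 bp paired-end reads. The deposited counts are whole reads per gene symbol, 1 column per library. Per the series' design text, the authors kept uniquely mapped pairs with up to 2 mismatches and a paired distance of 130 to 300. No source used here names the aligner, the counter, its use of strand or its treatment of shared exons. The submitters' processing notes name edgeR without a role. The authors also deposited CPM values of 700 selected genes, which equal count over library total within 5e-10. Library groups come from the titles, of which 1, Rap_S4, lacks a letter of the others' prefix and was read as rapamycin 4.

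Counts were fitted with edgeR 4.0.16 (R 4.3.3): default expression filter, TMM scaling, quasi-likelihood F-test, Benjamini-Hochberg adjustment over 13940 genes, threshold 0.05. Printed levels are CPM over TMM-scaled totals, and folds are rapamycin over control. SDs are between libraries, and SEs come from the fit that gave the fold change, unless named as counting error. Floors (3 counts) cover counting error only. The procedure was tested on simulated counts. Alternatives were DESeq2 1.42.0, RLE or no scaling, no filter, each library left out and the 4 libraries with lung transcripts left out, and, added after the data were seen, the edgeR exact test. Exon structure and shared 50-base windows come from GENCODE M21, a later annotation than the authors' build, matched by symbol for 57 of 58 members. No coordinates or sequences are printed.

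The members and gene lists were chosen with earlier results of these data known, so lists are described by counts and medians. Members are named if called, among the 3 highest in level or the 2 smallest p per direction of their array, or C-type. Regulators, partners and unclustered genes are named if called or smallest in p per direction, with Ctcf, Rad21, Smchd1 and Dnmt3b always named. Other members are given by values. Some genes of the lists are not reported here by name.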

Additional observations from a re-analysis of the deposited data

Results flagged for a closer look

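In 38 checks of the highest and lowest library of a group, 4 stood apart from the other 9 by more than Dixon's 95% limit, where chance alone gives about 1 in 20 groups. Pcdhb9 was at 3.33 CPM in rapamycin 5, above the next library at 1.95 and the group median of 1.51. Pcdhb11 was at 2.51 CPM in control 7, where the next was 1.6 and the median 1.02. Pcdhb17 was at 5.81 CPM in control 1, below the next lowest at 7.51 and a median of 8.03. The summed gamma level was 11.5 CPM in rapamycin 4, with the next at 10.1 and a median of 9.62. Rapamycin 5 also had the highest summed beta level, and the ratio of summed beta levels was 1.09 without it.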

How the results depend on the processing

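No paired analysis was possible because each library number occurs in 1 group. The count of called genes, 469, was 1033 with DESeq2, 1332 without scaling factors, 803 with the edgeR exact test, 280 without the 4 libraries with lung transcripts, and 165 to 791 with 1 library left out, lowest without rapamycin 18 and highest without rapamycin 5. Pcdhb12 was called in 26 of 26 alternatives and Pcdhga1 in 16. The count of risen gamma members, 1, was 0 without scaling factors and without the 4 libraries, and 0 to 1 with 1 library left out. The count of called regulators, 0, was 1 with DESeq2 and 0 to 1 with 1 library left out (1 without control 20). The count of called signalling partners, 1, was 2 without scaling factors and 0 without the 4 libraries. The gamma difference in summed level, 0.26 on the log2 scale, was 0.04 as a mean of log2 CPM over members, a summary that gives the rare members equal weight. The causes of the other shifts were not tested. No alpha member was tested, so that array has no median. Depth limits the alpha members, 8 beta members and 20 gamma members, which held too few reads for the test.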
